A study of Mus musculus with 6 samples.

Results

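The genes described here are the FGF receptors Fgfr1, Fgfr2 and Fgfr3, the feedback inhibitors Spry1, Spry2, Spry4 and Dusp6, and the Ets response factors Etv1, Etv4 and Etv5. They were taken by name, and every probe that the platform annotation assigns to one of these symbols was used. The 10 genes had 19 of the 45276 probes on the array. Spry1 had no probe named there, so 9 genes were measured, and its level was not analysed here. Of the 19 probes, 15 were kept by a filter on dim signals, out of 19936 kept in all. The 4 probes that were not kept belonged to Fgfr1 (1 probe), Fgfr2 (2 probes) and Spry2 (its 1 probe), so 8 genes had a kept probe.

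RNA came from rhombomere 1 of mouse embryos at E12.5, of the ICR (CD-1) strain, and was read on Illumina Mouse WG-6 BeadChips, arrays of gene probes carried by beads. The gata2cko group carried En1-cre and Gata2 flox/flox, and the control group, titled wildtype, carried En1-cre and Gata2 flox/+. Both groups thus had the Cre and at least 1 floxed allele. Each group had 3 pools, which the series' design text counts as biological replicates, with 6 dissected pieces in a pool and 1 array for each. En1-cre acts in the midbrain and rhombomere 1 and is not limited to 1 cell type there. Pools were bulk tissue, in which fewer cells of a type and less RNA per cell cannot be told apart.

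Fibroblast growth factors bind receptor tyrosine kinases, which signal through Ras and the ERK kinases. ERK activity switches on the Ets factors Etv1, Etv4 and Etv5, which carry the transcriptional response, and also Sprouty proteins and the phosphatase Dusp6, which dampen the pathway in a feedback loop. At the border between midbrain and rhombomere 1, the isthmic organiser secretes Fgf8 and related ligands, and these genes are classic readouts of its reach into rhombomere 1.

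Between 42.8% and 45.1% of probes were above background on an array, and the raw median intensity lay between 69.8 and 76.7. Of the 12 genes fixed as markers of rhombomere 1 and the isthmus, 7 had a kept probe (En1, En2, Gbx2, Lmx1b, Sp8, Fgf8 and Fgf17), while Pax2, Pax5, Wnt1 and Fgf18 had none above the filter and Cnpy1 had no probe named here. Otx1 and Otx2, genes of the midbrain side of the border, were above background on all 6 arrays. The single probe for Gata2, the targeted gene, read 10.78, 10.79 and 11.09 in the gata2cko pools, against 10.71, 10.41 and 10.48 in the controls, on the normalized log2 scale. The labels do not place this probe inside or outside the floxed sequence, so it does not check them. All levels below are on that log2 scale, arrays are named 1R, 2R and 3R for gata2cko and 5R, 6R and 7R for controls, and differences are gata2cko minus control.

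Promoter sequence is shown first for Etv5, whose 2 kept probes both separated the groups, and for Dusp6, whose 3 kept probes gave unequal values. The sequences are RefSeq's for build GRCm38.p6, 250 bases upstream of an annotated start, 5′ to 3′ on the gene's strand. Capitals mark GGAA, the core letters that Ets factors recognise, on either strand. Etv5 has 2 annotated starts in that table, and its windows lie at chr16:22439571-22439820 and chr16:22438369-22438618 on the minus strand. The Dusp6 window is chr10:99262981-99263230 on the plus strand.
Etv5, first start: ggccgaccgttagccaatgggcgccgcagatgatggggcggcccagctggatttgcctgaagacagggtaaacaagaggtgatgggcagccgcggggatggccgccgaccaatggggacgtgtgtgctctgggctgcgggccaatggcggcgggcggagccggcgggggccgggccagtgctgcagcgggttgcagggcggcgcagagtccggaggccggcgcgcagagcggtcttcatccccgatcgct
Etv5, second start: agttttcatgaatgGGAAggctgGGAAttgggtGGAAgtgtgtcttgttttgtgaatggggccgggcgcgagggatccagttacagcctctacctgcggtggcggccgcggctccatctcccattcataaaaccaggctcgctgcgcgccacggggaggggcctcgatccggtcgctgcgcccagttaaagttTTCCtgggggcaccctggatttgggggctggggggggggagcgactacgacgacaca
Dusp6: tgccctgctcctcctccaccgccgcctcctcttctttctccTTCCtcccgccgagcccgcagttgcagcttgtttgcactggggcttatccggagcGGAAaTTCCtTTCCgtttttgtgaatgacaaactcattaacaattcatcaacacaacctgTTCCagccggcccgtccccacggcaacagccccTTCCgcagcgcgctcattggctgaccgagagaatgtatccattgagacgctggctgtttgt

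GGAA was found 0 times in the first Etv5 sequence, 4 times in the second and 6 times in that of Dusp6. In the full windows of 300 bases at these starts the counts were 0, 6 and 6. GGAA is common: 96.0% of the 32851 promoter windows of 300 bases in the table hold it on 1 strand or the other, with a median of 3 matches. The longer Ets core CCGGAA, which contains GGAA, was searched on either strand in the 10 windows used for 7 member genes. It was found in 1 of the 10, that of Spry2, and in 14.9% of all windows. Any member window on 1 chromosome was left out by the search, while the share over all windows had no such exclusion. Fgfr1, Spry4 and Etv4 had no window among the 10, so the motif counts do not cover them. AGATAA, 1 form of the sequence that GATA factors recognise, was found in 0 of the 10 windows and in 11.2% of all windows. Other forms were not searched, so this does not tell whether the windows hold a GATA sequence. These matches are letters in a window and not sites of binding.

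None of the 15 kept member probes passed the test across all probes. With limma and a Benjamini-Hochberg adjusted p under 0.05, 0 member probes were called in either direction, against 29 of 19936 kept probes, or 0.145% (0.0201% higher and 0.125% lower in gata2cko). At an unadjusted p under 0.05, 6 member probes were higher in gata2cko and 0 were lower, where 3.98% of all kept probes were higher and 4.86% lower. These were the probes of Spry4, Etv4 and Etv5, 1 Dusp6 probe and 1 Etv1 probe, with differences of 0.35 to 0.52, or about 1.28 to 1.43 times the control level. The lowest adjusted p of any member was 0.332, for Etv4 (limma).

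In 6 of the 15 kept probes the 3 gata2cko values lay above all 3 control values, and in 0 they lay below. This separation upwards was seen in 7.42% of all kept probes and separation downwards in 6.60%. The 6 probes belong to 5 genes, namely Spry4, Dusp6, Etv1, Etv4 and Etv5. Of the 15 differences 13 were positive and their median was 0.29, while 52.1% of all kept probes were positive with a median of 0.01. The 15 are not all members, and a dim probe can be kept through the group in which it is higher, so these counts describe the probes and do not support a direction. Among the 11 member probes above background on all 6 arrays, 3 were separated upwards, or 27.3%, against 7.63% of all probes above background on all 6 arrays. The median difference of the 11 was 0.20. The 3 were both Etv5 probes and 1 Etv1 probe, and these counts too support no direction. An exact permutation test of 3 pools against 3 cannot give a two-sided p below 0.1. Any probe with separated groups takes that value, so for the 6 probes the test adds nothing to the separation.

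**Figure D1:**
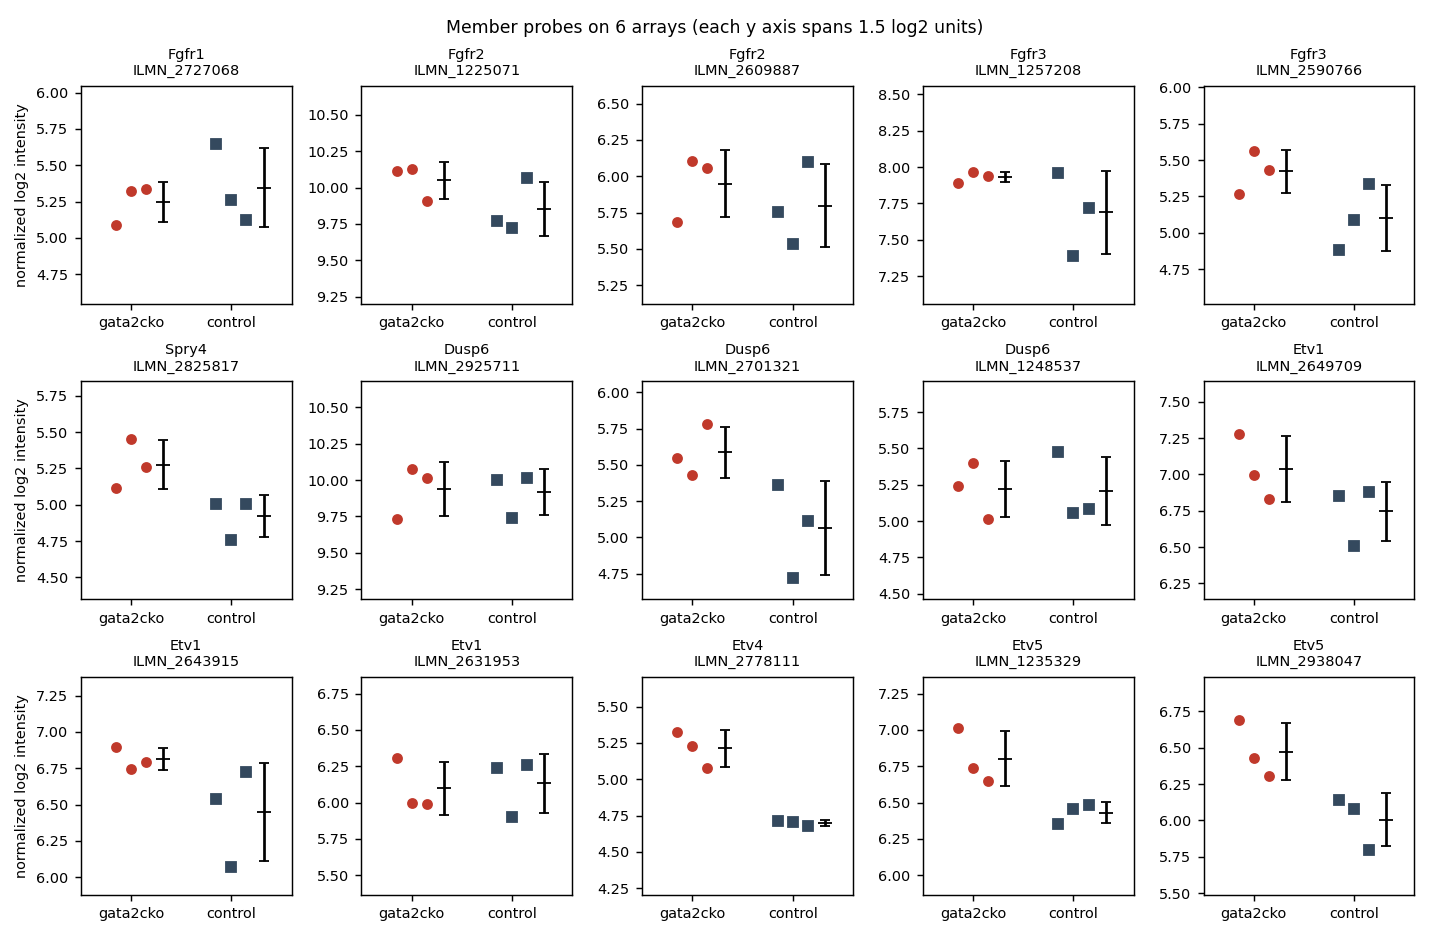
Normalized log2 intensity of the 15 kept member probes on each array, with gata2cko pools (red circles) left of control pools (blue squares) and the mean ± SD beside each group (n = 3). The groups do not overlap for Spry4, 1 of 3 Dusp6 probes, 1 of 3 Etv1 probes, Etv4 and both Etv5 probes.

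Etv5, an Ets factor induced by FGF signalling, had 2 kept probes, and both separated the groups. On probe ILMN_2938047 it read 6.69, 6.43 and 6.30 in gata2cko pools 1R, 2R and 3R, against 6.14, 6.08 and 5.80 in control pools 5R, 6R and 7R. The lowest gata2cko pool was thus above the highest control pool by less than the SD within either group. The difference was 0.47 ± 0.15 (SE, n = 3 pools per group; 95% interval 0.14 to 0.80; limma adjusted p = 0.418). On probe ILMN_1235329 the values were 7.01, 6.74 and 6.65 in gata2cko pools, against 6.35, 6.46 and 6.49 in controls. Pool 1R was the highest on both probes, and the groups again did not overlap. The difference here was 0.37 ± 0.14 (95% interval 0.07 to 0.67; limma adjusted p = 0.466). Its unadjusted p was 0.0194, and that of the other probe 0.00943.

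Etv4, a close relative of Etv5 that is transcribed near FGF sources, had 1 probe, ILMN_2778111, and it was dim. It read 5.33, 5.23 and 5.08 in gata2cko pools, against 4.71, 4.71 and 4.68 in controls. The probe was above background on 3 of 3 gata2cko arrays and on 0 of 3 control arrays, so it passed the filter through the gata2cko group alone and had to differ to do so. The measured difference was 0.51 ± 0.15 (unadjusted p = 0.00370; limma adjusted p = 0.332). As the control level is only bounded, a lower bound on the measured ratio of gata2cko to control was computed, at 1.17-fold. For it each control value was raised, where lower, to the smallest signal that passed background on its array. This bound leaves out sampling error and holds only for the background correction with an offset of 16. The measured difference was 0.24 without background correction and 1.01 with a small offset of 1 after correction, so its size depends on how background is handled.

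Etv1, the third of the FGF-responsive Ets factors, had 3 probes that did not give 1 picture. Probe ILMN_2643915 read 6.89, 6.75 and 6.80 in gata2cko pools, against 6.54, 6.07 and 6.73 in controls. These groups did not overlap, but the gap between pools 2R and 7R was 0.02, and control pool 6R was low. The difference was 0.37 ± 0.17 (limma adjusted p = 0.556). Probe ILMN_2649709 read 7.28, 6.999 and 6.83 in gata2cko pools, against 6.85, 6.51 and 6.88 in controls, with a difference of 0.29 ± 0.15 (limma adjusted p = 0.626). Here gata2cko pool 3R lay below 2 of the controls. Probe ILMN_2631953 gave -0.03 ± 0.16 (95% interval -0.37 to 0.30), a value whose sign turned to 0.025 with median scaling. Its change was 0.32 log2 units below that of ILMN_2649709, with an exact two-sided permutation p of 0.1, the smallest possible, and 0.7 after adjustment over 7 such probe pairs. Over the 3 Ets genes, 6 probes were kept and 0 were called, and 4 were separated upwards, where 7.42% of all kept probes were. Without Etv4, which passed the filter through gata2cko alone, 3 of 5 probes were separated upwards, and these counts describe the probes and support no direction.

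Dusp6, a phosphatase that switches off ERK, also had 3 kept probes, and 2 of them gave differences close to 0. Probe ILMN_2925711 read 9.73, 10.08 and 10.01 in gata2cko pools, against 10.003, 9.74 and 10.02 in controls. The groups covered the same range, and the difference was 0.02 ± 0.12 (95% interval -0.24 to 0.28; limma adjusted p = 0.975). The dim probe ILMN_1248537 gave 0.01 ± 0.17 (95% interval -0.35 to 0.38). The signs of both turned negative with some arrays left out, reaching -0.069 and -0.076.

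The remaining Dusp6 probe, ILMN_2701321, read 5.55, 5.43 and 5.78 in gata2cko pools, against 5.36, 4.72 and 5.11 in controls. The groups did not overlap, and the control pool 6R, at 4.72, was below background. Its difference of 0.52 ± 0.18 (95% interval 0.13 to 0.91; limma adjusted p = 0.435) was 0.24 without background correction and 0.87 with an offset of 1. It exceeded that of ILMN_2925711 by 0.50, with an exact two-sided permutation p of 0.2 and 0.7 after adjustment over the 7 pairs. As no pair could go below 0.1 with 3 pools per group, this test cannot tell whether the probes of 1 gene changed alike. The position of each probe in the transcript was not used here.

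Spry4, a Sprouty protein that inhibits Ras-ERK signalling downstream of FGF receptors, had 1 probe, ILMN_2825817. It read 5.11, 5.45 and 5.26 in gata2cko pools, against 5.004, 4.76 and 5.01 in controls. The groups did not overlap, by a gap of 0.11, and control pool 6R was below background. The difference was 0.35 ± 0.16 (unadjusted p = 0.0414; limma adjusted p = 0.548). The Spry2 probe ILMN_2749464 was above background on 0 of 6 arrays, with means of 4.37 in gata2cko and 4.29 in controls, so no level of this gene was measured and no fold is given.

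The receptors had 5 kept probes with differences of -0.10 to 0.32, and in 0 of them were the groups separated. Fgfr3, a receptor of neural progenitors, read 7.89, 7.97 and 7.94 on probe ILMN_1257208 in gata2cko pools, against 7.96, 7.39 and 7.72 in controls. The gata2cko pools were close together and control pool 5R was among them, and the difference was 0.24 ± 0.14 (limma adjusted p = 0.667). The dimmer Fgfr3 probe ILMN_2590766, above background on 3 gata2cko and 2 control arrays, gave 0.32 ± 0.16 (limma adjusted p = 0.612).

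Fgfr2, which is likewise carried by progenitors of the ventricular zone, read 10.11, 10.13 and 9.90 on probe ILMN_1225071 in gata2cko pools, against 9.77, 9.72 and 10.07 in controls. Control pool 7R lay above gata2cko pool 3R, and the difference was 0.20 ± 0.12 (95% interval -0.06 to 0.45; limma adjusted p = 0.674). A dimmer Fgfr2 probe, ILMN_2609887, gave 0.15 ± 0.18 (limma adjusted p = 0.843). The other two Fgfr2 probes were above background on 0 and 1 of 6 arrays. Fgfr1, the main FGF receptor of the midbrain and rhombomere 1 in the mouse, read 5.09, 5.32 and 5.34 on probe ILMN_2727068 in gata2cko pools, against 5.65, 5.26 and 5.12 in controls. The difference was -0.10 ± 0.17 (95% interval -0.46 to 0.27; limma adjusted p = 0.906), and it rested on control pool 5R, without which it was 0.055. This probe was near background, so the interval allows sizeable changes either way. A second Fgfr1 probe was above background on 1 of 6 arrays.

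**Figure D2:**
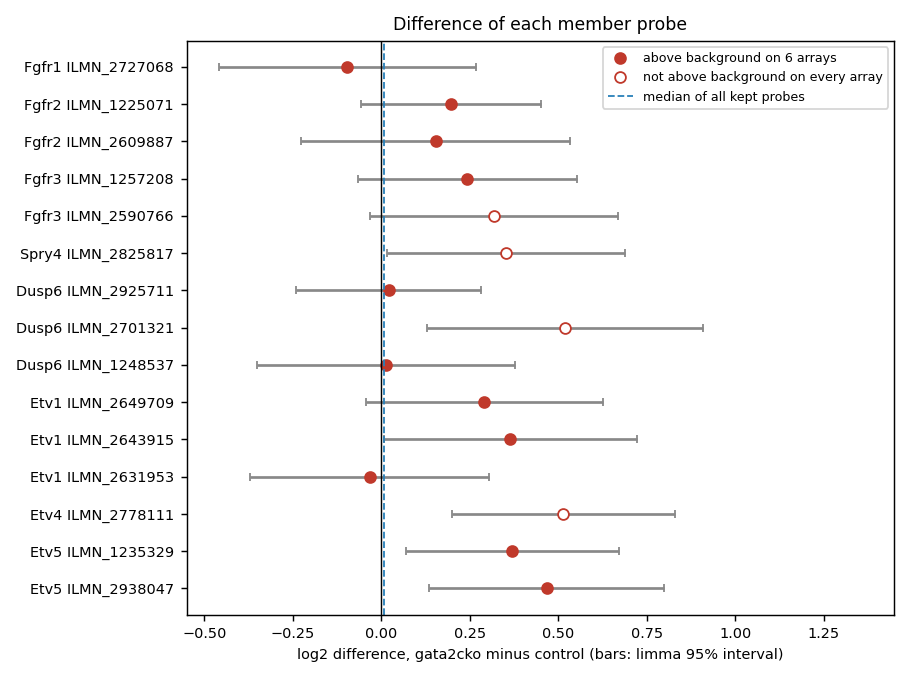
Difference of each kept member probe, gata2cko minus control in log2, with limma's 95% interval (n = 3 pools per group). Filled points were above background on all 6 arrays and open points were not. The intervals of Spry4, Dusp6 ILMN_2701321, Etv1 ILMN_2643915, Etv4 and both Etv5 probes lie above 0, but 0 of 15 passed after adjustment over all probes.

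Across arrays, the member probes were lowest most often in control pool 6R. After centring each probe on its mean over the 6 arrays, the median over the 15 kept probes was 0.16, 0.16 and 0.08 in gata2cko pools 1R, 2R and 3R, against -0.09, -0.23 and -0.09 in control pools 5R, 6R and 7R. Pool 6R held the lowest value of 8 of the 15 probes. Pools 1R and 2R each held the highest value of 6. Without pool 6R the median difference of the kept member probes was 0.17, and without pool 7R it was 0.36. By the distance between standardized profiles over the 6 arrays, the named probes nearest to the mean profile of the 8 genes were those of Zfp30, Ubr7, Uhrf1bp1l, Tmc6 and Rpl10a, at root mean square distances of 0.13 to 0.17 standard deviations, out of 16548 candidate probes. With so few arrays this is a description only.

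Other parts of the FGF pathway were read from fixed lists, and in each of the 8 lists 0 probes were called (limma, adjusted p under 0.05). Of their 138 kept probes together, 8 were higher and 10 lower in gata2cko at an unadjusted p under 0.05, where 3.98% and 4.86% of all kept probes were. The FGF ligands had 10 kept probes for 7 of 18 genes, with a median difference of -0.04. Fgf8, the main ligand of the isthmic organiser, read 7.55, 7.10 and 7.17 in gata2cko pools, against 6.87, 6.62 and 7.11 in controls, a difference of 0.41 ± 0.16 (limma adjusted p = 0.497). Fgf17, which is made beside it, read 7.71, 7.51 and 7.58 on its brighter probe in gata2cko pools, against 6.81, 7.01 and 7.68 in controls, a difference of 0.43 ± 0.19 (limma adjusted p = 0.546). In both, control pool 7R overlapped the gata2cko pools. The dim second Fgf17 probe, ILMN_2639788, gave 0.02 ± 0.17 (limma adjusted p = 0.983). Fgf15 gave -0.07 and the lower of the Fgf10 probes -0.29, and Fgf18 was below the filter. The FGF homologous factors, which stay inside the cell and bind sodium channels, had 4 kept probes with a median of -0.25, among them Fgf12 at -0.35 and 0.10.

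Co-receptors and membrane modulators had 23 kept probes with a median of -0.08. Flrt2, a membrane protein with leucine-rich repeats, read 6.96, 7.08 and 7.15 in gata2cko pools, against 7.69, 7.67 and 7.58 in controls. Its difference of -0.59 ± 0.12 had the smallest p of the pathway probes (unadjusted p = 0.000291; limma adjusted p = 0.123), and the groups did not overlap. Its paralog Flrt3 gave 0.10, Fgfrl1, a receptor lacking the kinase domain, 0.11, and the 2 probes of Il17rd, a membrane inhibitor of FGF signalling, 0.23 and 0.21. Gpc3, a heparan sulfate proteoglycan, gave 0.19 and 0.13, while Fgfr4 was below the filter. Enzymes of heparan sulfate, the sugar chain that FGFs need to bind their receptors, had 20 kept probes with a median of 0.04, from 1 Ext2 probe at -0.33 to other members at up to 0.28, and Hs2st1 gave 0.21 and 0.05.

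The other feedback inhibitors of Ras and ERK had 29 kept probes with a median of -0.12, and 19 of them were negative. Spry3 read 7.43, 7.63 and 7.47 in gata2cko pools, against 7.64, 7.94 and 7.82 in controls, a difference of -0.29 ± 0.13 (limma adjusted p = 0.537). Its groups did not overlap, though the gap was 0.01. Dusp1, a phosphatase of several MAP kinases, gave -0.27 (limma adjusted p = 0.498), and the 4 probes of Dusp4 gave -0.12 to -0.34. Nf1, a Ras GTPase-activating protein, gave 0.63 and 0.39 on probes that were not above background on all arrays, and Spred1 gave 0.05. Spred2 was below the filter.

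Adaptors and kinases of the cascade had 22 kept probes with a median of -0.05, including Shc1 at -0.31 and 0.10 and Araf from -0.22 to 0.19. The Shc1 probe at -0.31 was dim, above background on 1 of 3 gata2cko arrays and 3 of 3 control arrays. The other Ets factors had 14 kept probes with a median of -0.02, with Elk3 at 0.31 and the Elf2 probes from -0.41 to 0.05. The Elk3 probe was dim too, above background on 3 of 3 gata2cko arrays and 1 of 3 control arrays. Genes that respond to ERK, with cyclins of the G1 phase, had 16 kept probes with a median of 0.06, and 12 were positive. Only 11 of the 20 genes had a kept probe. Egr2, Fos, Fosb, Fosl1, Junb, Ier2, Ier5, Myc and Mycn had none, so these were not measured. Of the 16, 5 were separated upwards and 1 downwards, where 7.42% and 6.60% of all kept probes were. At an unadjusted limma p under 0.05, 4 were higher and 1 lower, where 3.98% and 4.86% of all kept probes were. These counts describe the probes and support no direction. Ccnd1, a cyclin that drives entry into S phase, read 11.94, 11.99 and 11.99 on probe ILMN_2601471 in gata2cko pools, against 11.59, 11.60 and 11.60 in controls, a difference of 0.38 ± 0.09 (unadjusted p = 0.000715; limma adjusted p = 0.198). Its probe ILMN_1221503 gave 0.34 and its probe ILMN_2669793 gave 0.06. Both ILMN_2601471 and ILMN_1221503 were among the probes separated upwards, so that count holds 1 gene more than once. Egr1, an immediate early gene, gave -0.43 ± 0.14 (limma adjusted p = 0.425).

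**Figure D3:**
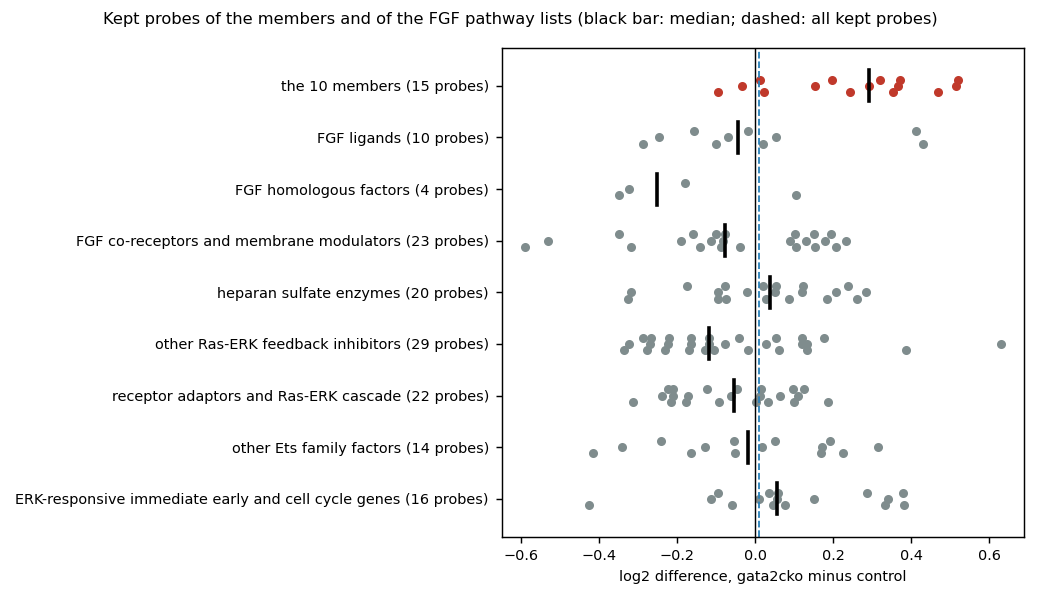
Differences of the kept probes, gata2cko minus control in log2, for the members (red) and the 8 FGF pathway lists (grey), each point a probe and each black bar a median. The dashed line is the median of all kept probes, 0.01. The members' median of 0.29 and the lists' medians of -0.25 to 0.06 are descriptions, with 0 probes called in any of these groups.

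Levels of other cell types were read beside these differences from marker lists, as the sum of normalized intensity over the most intense kept probe of each gene. The list for rhombomere 1 and the isthmus summed to 7517 to 9208 in gata2cko pools, against 8447 to 9955 in controls, and 0 of its 9 kept probes were called. Neural progenitor markers, with 11 of 11 genes kept, summed to 15443 to 17815 in gata2cko pools, against 14553 to 16172 in controls. Neuron markers, with 9 of 11 genes kept, summed to 23965 to 25788 in gata2cko pools, against 25771 to 28399 in controls. Of their 22 kept probes 1, for the synaptic vesicle protein Syt1, was called, and it was lower in gata2cko. Of the 22, 16 were negative, and 6 were separated downwards and 1 upwards, where 6.60% and 7.42% of all kept probes were. These neuron counts describe the probes and support no direction. Serotonergic neuron markers, with 9 of 10 genes kept, summed to 1179 to 1461 in gata2cko pools, against 4068 to 5266 in controls. Of their 14 kept probes 10 were called, all lower in gata2cko. The part of these cell types in the differences of the FGF response genes was not tested.

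Red blood cell markers summed to 52769 to 60937 in gata2cko pools, against 49668 to 56105 in controls. Endothelial markers summed to 675 to 846 in gata2cko pools, against 759 to 853 in controls. Mesenchymal and meningeal markers had 3 of 11 genes kept, and Col1a1, Col1a2 and Col3a1 were not among them; they summed to 215 to 232 in gata2cko pools, against 219 to 226 in controls. Midbrain markers summed to 2407 to 3801 in gata2cko pools, against 3005 to 3889 in controls. Markers of the hindbrain behind rhombomere 1 were near background, with 2 of 8 genes kept. Microglial markers, with 3 of 5 genes kept, summed to 169 to 181 in gata2cko pools, against 196 to 224 in controls, and oligodendrocyte lineage markers, with 3 of 4 kept, to 197 to 250, against 259 to 371 in controls. None of these 7 lists had a called probe, and their part in the members' differences was not tested.

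The direction of the members was read under the alternative settings. In the 19 alternatives 0 member probes were called in each, and 11 of the 15 probes stayed positive in all fits that included them. These fits reuse the same arrays, so steady signs are not independent support for a direction. For Etv5 the differences ran from 0.25 to 0.44 on ILMN_1235329 and from 0.28 to 0.59 on ILMN_2938047. The count over all probes was less steady. It was 103 without gata2cko pool 1R, and 14, 17 and 19 without control pools 5R, 6R and 7R.

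**Figure D4:**
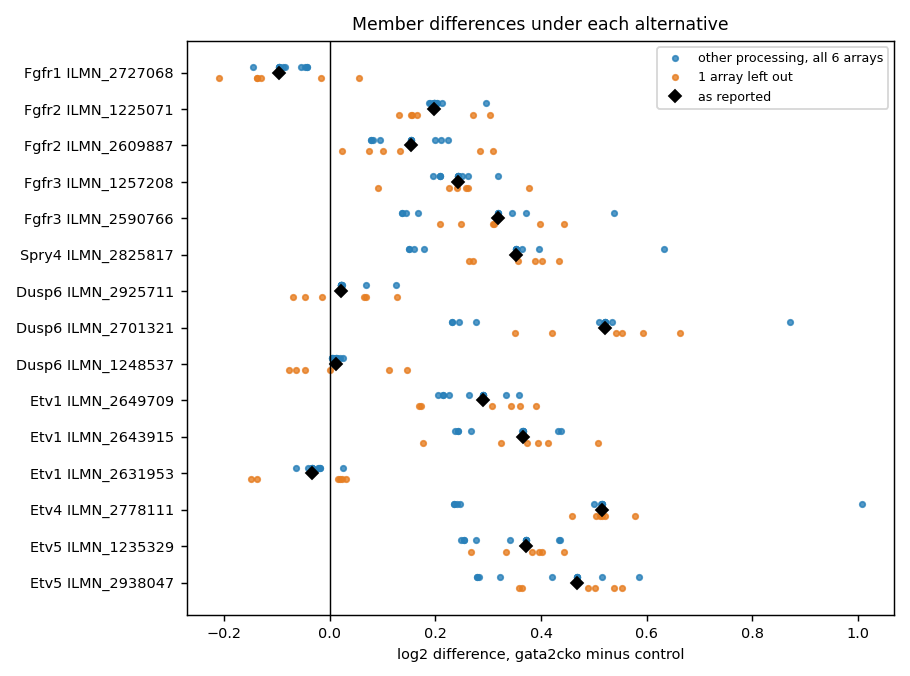
Difference of each kept member probe, gata2cko minus control in log2, as reported (black diamonds), under other processing of all 6 arrays (blue) and with 1 array left out (orange). Fgfr1, Dusp6 ILMN_2925711 and ILMN_1248537 and Etv1 ILMN_2631953 lie on both sides of 0, and the other 11 probes stay above 0, among them Etv4, which passed the filter through gata2cko alone.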

How the data were processed

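Rhombomere 1 RNA from 3 gata2cko and 3 control pools was measured. Members and lists were chosen with earlier results of these data known. The authors deposited probe intensity on a linear scale, not normalized per the file headers, with a detection p-value for each probe and array, and a second table of normalized intensity, used as an alternative. GenomeStudio 1.0 is named in the submitters' processing notes; what it was used for is not stated. Columns of the first table name the genotype and an array number that is in no title, so they were replicates of a group with no further label.

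In R 4.3.3, limma 3.58.1 was used. Its neqc function corrected background by normexp, taking the background from the detection p-values, added an offset of 16, applied quantile normalization and took log2. A probe was kept where 3 or more of the 6 arrays had a detection p-value under 0.05. All 19936 were fitted with lmFit and eBayes with an intensity trend, with no covariate, two-sided, and Benjamini-Hochberg adjustment over all of them. Background correction widens differences of dim probes. Values of probes below the filter come from a fit to all 45276 probes. Gene names came from the platform annotation, with 34881 probes of 1 symbol, 18 of several and 10377 of none. In simulated data with 19936 probes, 200 were changed, and 9 of 187 calls were false. There 58.0% of changes of 0.5 in log2, 100% of changes of 1 and of 2 and 98.0% of changes of -1 were called. The measured data had 29 called probes, so the adjusted threshold was harder to pass in them. The simulated shares thus do not tell how often changes of 0.5 would be called in the measured data.

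Named besides the members were Gata2, a short set of pathway genes whatever their result, the probe with the smallest p in each direction of each pathway list, and the 5 probes of nearest profile. Syt1, the markers printed and GGAA were chosen after values were seen. Alternatives were no background correction, offsets of 50 and 1, median scaling, the authors' normalized table, 2 other detection filters, 1 probe per gene, no intensity trend, robust eBayes, array weights, each array left out, a replicate block and a threshold of 0.1. Same-numbered pools of the authors' table had correlations of their deviations from group means of -0.04, -0.09 and -0.30. No shared deviation was thus seen, but these values cannot tell whether the numbers pair the pools. The number of arrays limits the precision.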

Additional observations from a re-analysis of the deposited data

How the results depend on the processing

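In 19 alternatives 0 member probes were called in each, with a lowest adjusted p of 0.235 (limma with array weights, for Etv4). The median difference of the members was 0.29 as reported, 0.19 without background correction, 0.19 with an offset of 50, 0.20 with the authors' normalized table, 0.20 with no detection filter, and 0.17 to 0.36 leaving out 1 array. The cause was not tested, except that removing the filter adds 4 dim probes. Member probes separated upwards were 6 as reported and 3 with 1 probe per gene, which leaves 8 probes. The count of changed probes was 29 as reported, 18 with 1 probe per gene (10524 tested), 19 with no intensity trend, and 14 to 103 leaving out 1 array. With the replicate block on the authors' normalized table it was 17, and the members' median was 0.20; the block changed no call of a member. Whether the replicate numbers pair the pools is not known. The block could not be run on the non-normalized table, whose columns carry no replicate number.

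Signs turned for Etv1 ILMN_2631953 with median scaling (0.025) and leaving out 1 array (-0.15 to 0.032), and leaving out 1 array for Fgfr1 ILMN_2727068 (-0.21 to 0.055), Dusp6 ILMN_2925711 (-0.069 to 0.13) and Dusp6 ILMN_1248537 (-0.076 to 0.15). Signal over background limits Etv4, Spry4, Spry2 and the dim probes of Dusp6, Fgfr1 and Fgfr3.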
